A study of Homo sapiens with 5 samples.

Results

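The genes described here make cholesterol and fatty acids or control that synthesis through SREBP, the sterol regulatory element binding protein family of transcription factors. They were chosen by symbol from a list of 34 genes, and all 34 were among the 16677 genes of the count table. Each of the 34 passed the filter on low counts and was among the 16310 tested genes. By role, 20 belong to the sterol branch, 9 to the fatty acid branch and 5 regulate both. The 5 mRNA libraries came from HEK293, a long-established cell line of human embryonic kidney origin, kept under basal conditions. Per the labels, 2 libraries had the wild-type genotype and are called control 1 and control 2. The other 3 libraries had the genotype rs11607019, a T-to-C change that the series places in SIRT3, and are called variant 1, variant 2 and variant 3. SIRT3 is a mitochondrial enzyme that removes acetyl groups from proteins with NAD as cofactor. The labels name no treatment, and they do not say whether the libraries of a group came from separate clones, so p-values measure only the spread between these samples, which may be technical.

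Cells build cholesterol from cytosolic acetyl-CoA through the mevalonate pathway, squalene and a series of sterol intermediates, and build fatty acids from the same acetyl-CoA. SREBP2, made from SREBF2, mainly drives the sterol genes, and SREBP1, made from SREBF1, mainly drives the fatty acid genes. SCAP carries both proteins from the endoplasmic reticulum to the Golgi apparatus, where they are cut and released, and the INSIG proteins hold SCAP back when sterols are plentiful.

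SREBP proteins act on promoters together with NF-Y, a factor that binds CCAAT, and with Sp1, which binds GC boxes. The following stretches of 120 bases lie in front of members picked as examples. The members are both INSIG genes, SREBF2, MSMO1 of the sterol branch, and ACLY and SCD of the fatty acid branch. Capitals mark CCAAT on either strand and the sterol regulatory element letters TCACNCCAC. GC boxes are left in lower case. Each stretch ends before the first exon base of its gene near that start in GENCODE release 29, and ACLY also has a longer annotated transcript that begins further upstream. The sequences are those of RefSeq on GRCh38.p14, written 5′ to 3′ on the strand of the gene.
SREBF2, chr22:41832959-41833078, plus strand: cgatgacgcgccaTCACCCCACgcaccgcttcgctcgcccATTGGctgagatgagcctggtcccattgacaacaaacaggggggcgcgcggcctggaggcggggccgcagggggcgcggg
INSIG1, chr7:155297656-155297775, plus strand: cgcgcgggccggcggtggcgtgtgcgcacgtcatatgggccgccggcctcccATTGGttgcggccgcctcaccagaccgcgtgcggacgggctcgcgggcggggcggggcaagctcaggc
INSIG2, chr2:118088332-118088451, plus strand: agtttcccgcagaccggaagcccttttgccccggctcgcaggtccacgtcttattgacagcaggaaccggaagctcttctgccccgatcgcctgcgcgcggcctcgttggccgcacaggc
MSMO1, chr4:165327503-165327622, plus strand: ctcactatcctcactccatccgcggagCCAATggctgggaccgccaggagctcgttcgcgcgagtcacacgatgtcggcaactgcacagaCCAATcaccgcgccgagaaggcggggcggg
ACLY, chr17:41919023-41919142, minus strand: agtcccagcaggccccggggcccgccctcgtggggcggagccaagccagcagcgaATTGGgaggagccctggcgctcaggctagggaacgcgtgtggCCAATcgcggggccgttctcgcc
SCD, chr10:100347004-100347123, plus strand: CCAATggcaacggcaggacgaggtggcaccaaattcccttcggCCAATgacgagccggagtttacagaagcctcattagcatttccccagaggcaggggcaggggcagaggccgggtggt

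In these stretches SREBF2 has the sterol element letters and 1 CCAAT, INSIG1 has 1 CCAAT and INSIG2 has none of the marked letters. MSMO1, ACLY and SCD have 2 CCAAT each. Of the 34 members, 30 had a promoter in the RefSeq table, which spans 250 bases before to 50 bases after each start. CCAAT, searched on both strands, was present for 23 of these 30 members and for 39.7% of all 27305 genes with a promoter. The GC box GGGCGG, also searched on both strands, was present for 28 of the 30 and for 48.3% of all genes. The 27305 genes are all those of the promoter table, not only the tested ones. A share over the tested genes was not computed. TCACNCCAC on both strands was found for 1 member, SREBF2, and for 1.39% of all genes. CACGTG, an E-box that reads the same on both strands, was found for 5 members (ELOVL5, INSIG1, LSS, SC5D and SCAP) and for 8.77% of all genes. Matches of different motifs shared bases in 0 of the 41 promoters of these members. A match is a description of the letters and not a measured binding site. Only these exact letters in this window were searched, so a member without a match may still have a site.

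Library totals ran from 17122569 to 17596084 counts, of which the 34 members held between 116302 and 145113. Levels are given as CPM, counts scaled to a common library size with TMM, which corrects for library composition. SIRT3 itself stood at 28.9 and 29.3 CPM in the control libraries and at 26.5, 15.8 and 30.2 CPM in variant 1, variant 2 and variant 3 (log2 fold change −0.27, SE 0.26, adjusted p 0.815 in edgeR's quasi-likelihood test). Of the genes fixed as a check of the cell line, PAX2, VIM and LIN28B were measured in every library. NEFL, NEFM and INA had no row in the count table under these symbols. Of 10 markers of leukocytes, endothelium, hepatocytes and fibroblasts, COL1A1 alone had a row in the count table, at a log2 fold change of 0.02. Over 10854 genes with a mean log2 CPM above 3, not independent of each other, the Spearman correlation between the GC content of a gene and its deviation from the mean of the 5 libraries was −0.538 and 0.0722 in control 1 and control 2, and −0.128, 0.247 and 0.476 in variant 1, variant 2 and variant 3.

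With edgeR, 0 of 34 members had an adjusted p under 0.05, and the share over all tested genes was 0%. The lowest adjusted p of a member was 0.616. At an unadjusted p under 0.05 there were 2 of 34 members, SC5D and INSIG2, both lower in the variant libraries, where the share over all tested genes was 7.62% in either direction, 4.11% higher and 3.51% lower. Libraries of the groups did not overlap at 6 members, 4 of them higher and 2 lower in the variant, against 24.8% of all tested genes (11.8% higher and 13.0% lower). The members' shares in either direction were 5.88% and 17.6%, both under the background, and the share lower at that p, also 5.88%, was above its own. The median log2 fold change over the 34 members was 0.05, with 22 higher and 12 lower, beside 0.003 over all tested genes. Their median absolute log2 fold change was 0.135, beside 0.200 over all tested genes, which include many genes of lower level. For 32 of the 34 members the 95% interval of the fold change lay within 2-fold either way, and the exceptions were SC5D and CYP51A1. Fewer cells with a transcript and less transcript per cell cannot be told apart in bulk RNA.

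**Figure D1:**
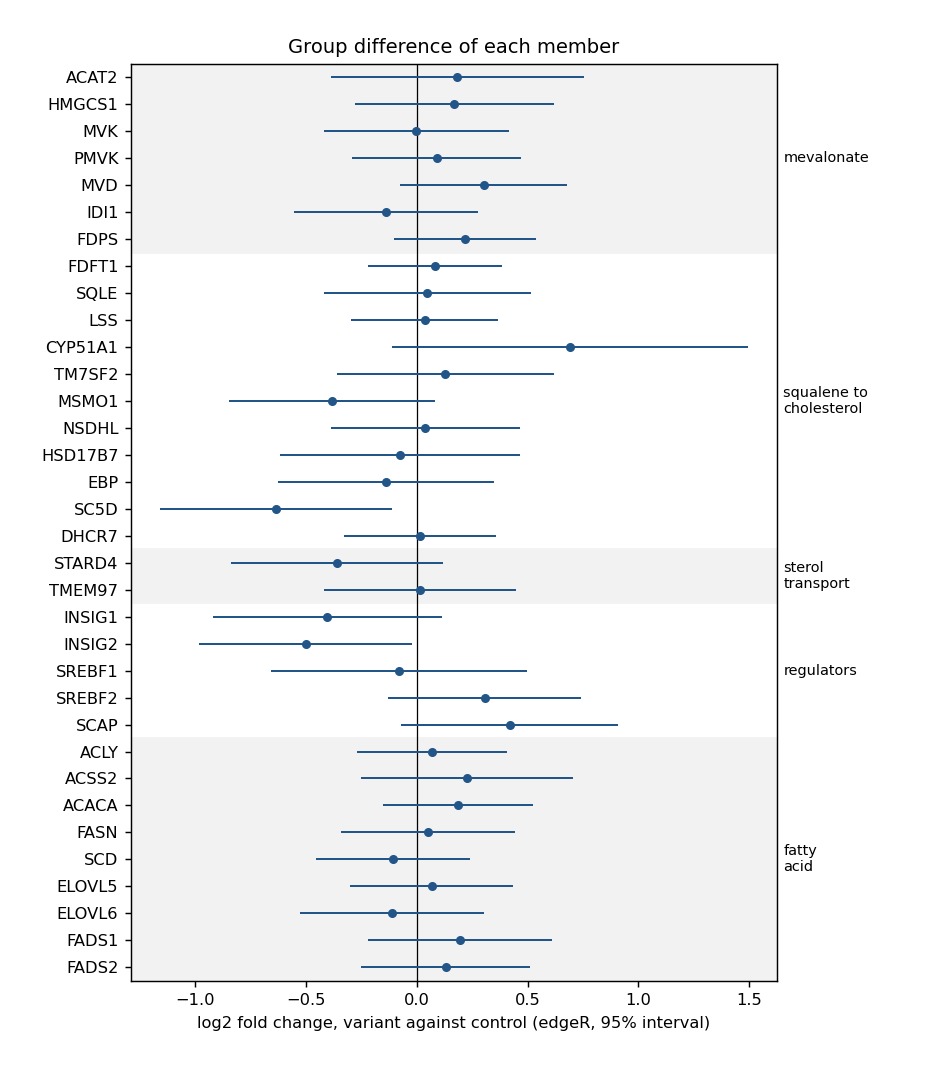
Log2 fold change of each member in the variant libraries (n = 3) against the control libraries (n = 2), with edgeR's 95% interval, grouped by role. The intervals of SC5D and INSIG2 lie below 0 without adjustment for multiple tests, and those of the other 32 members include 0.

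Levels of different genes were compared as CPM per kb of annotated exon sequence. The fatty acid branch held the 3 highest members on that scale. FASN, the multifunctional fatty acid synthase, stood at 187 CPM per kb, ACLY, which makes cytosolic acetyl-CoA from citrate, at 157, and SCD, which puts the first double bond into saturated fatty acids, at 124 (means of the 5 libraries). HMGCS1, which makes HMG-CoA at the entry to the mevalonate pathway, was next with 75.2 CPM per kb, followed by the feedback gene INSIG1 with 68.9. The lowest were HSD17B7, a sterol ketoreductase, with 1.92 CPM per kb, and CYP51A1, the lanosterol demethylase, with 1.39.

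The level of CYP51A1 is uncertain. In GENCODE release 29, 79.4% of its exon bases are also exon bases of other annotated genes on the same strand, to which reads could equally be assigned, and its counts were 71, 55, 140, 97 and 70 in control 1, control 2, variant 1, variant 2 and variant 3. Exons of genes on the opposite strand cover 52.3% of the exon bases of ACAT2, and it is not given in the sources used here whether counting used the strand. Annotated pseudogene copies of FDPS, CYP51A1, HSD17B7, TMEM97, SCD and FADS2 could share short reads with them.

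**Figure D2:**
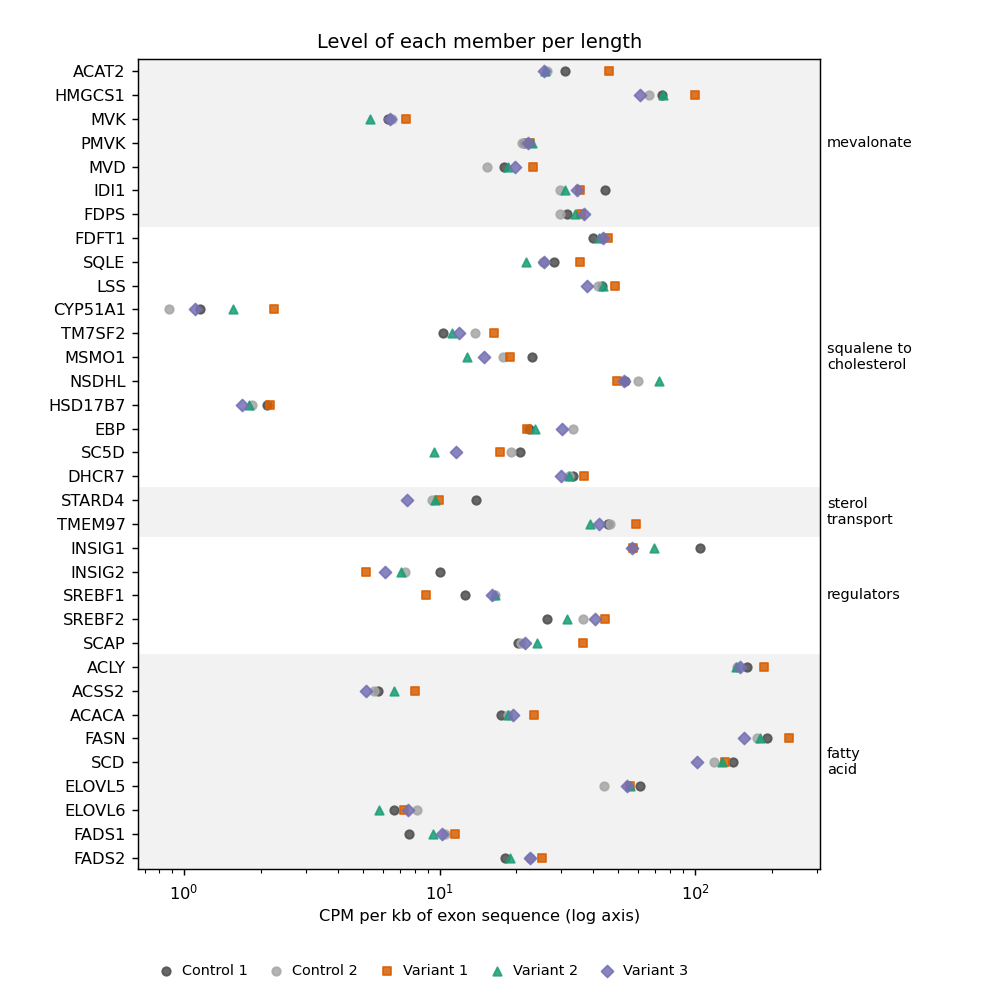
CPM per kb of exon sequence of each member in each library, on a log axis, by role. FASN, ACLY and SCD lie farthest right, and the 5 libraries of a gene lie close together relative to the distance between genes.

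For the 7 enzymes of the mevalonate pathway, which turn acetyl-CoA into the isoprenoid units of sterols, the median log2 fold change was 0.17, 5 higher and 2 lower in the variant. None passed the test. HMGCS1 (ENSG00000112972, chromosome 5, 43289395 to 43313512) stood at 348 and 310 CPM in control 1 and control 2 and at 469, 354 and 286 CPM in variant 1, variant 2 and variant 3. Variant 1 was the highest library and variant 3 the lowest, so the groups overlapped. For HMGCS1 the log2 fold change was 0.17 (SE 0.20, adjusted p 0.851 in edgeR's test), and without variant 1 it was −0.04.

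ACAT2, the cytosolic thiolase that makes acetoacetyl-CoA, showed the same library apart from the others. It stood at 133 and 113 CPM in the control libraries and at 197, 111 and 110 CPM in the variant libraries. Variant 1 alone was above both controls, and the log2 fold change of 0.18 (SE 0.25) became −0.15 without it.

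A further 3 of these 7 enzymes gave groups that did not overlap, all higher in the variant, as did 11.8% of all tested genes. Over the 34 members the share in either direction was 17.6%, beside 24.8% of all tested genes. MVD, which decarboxylates mevalonate diphosphate, stood at 84.6 and 72.2 CPM in the control libraries and at 109, 87.8 and 92.9 CPM in the variant libraries (log2 fold change 0.30, 95% interval −0.08 to 0.68, adjusted p 0.693 in edgeR's test). FDPS, which joins isoprenoid units into farnesyl diphosphate, stood at 117 and 110 CPM against 133, 126 and 137 CPM (log2 fold change 0.22, SE 0.14). PMVK, which adds the phosphate to mevalonate phosphate, spanned a narrow range, from 26.8 CPM in control 2 to 29.3 CPM in variant 2 (log2 fold change 0.09, SE 0.17). MVD, FDPS and PMVK kept their direction in each of the 11 alternatives run. Because their groups did not overlap, leaving out a library could hardly turn their sign, so those runs are a weak check.

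The other mevalonate enzymes, IDI1 and MVK, had estimates below 0. IDI1 (ENSG00000067064, chromosome 10, 1039152 to 1049170), the isomerase of isopentenyl diphosphate, stood at 193 and 129 CPM in the control libraries and at 154, 135 and 150 CPM in the variant libraries. Control 1 and control 2 were the highest and the lowest library, and the log2 fold change was −0.14 (SE 0.19). It was 0.18 without control 1 and −0.40 without control 2. MVK, which phosphorylates mevalonate, had a mean of 41.4 ± 0.910 CPM (SD, n = 2) in the control and 41.4 ± 6.59 CPM (SD, n = 3) in the variant (log2 fold change −0.002, SE 0.19).

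For the 11 enzymes from squalene to cholesterol the median log2 fold change was 0.03, 7 higher and 4 lower in the variant, and none passed the test at an adjusted p. SC5D (ENSG00000109929, chromosome 11, 121292453 to 121308694), the desaturase that makes 7-dehydrocholesterol, gave the largest decrease of any member. It stood at 115 and 106 CPM in control 1 and control 2 and at 95.9, 53.0 and 64.4 CPM in variant 1, variant 2 and variant 3. All 3 variant libraries were below both controls, and variant 2 and variant 3 were well below variant 1. In edgeR's test SC5D had a log2 fold change of −0.64 (SE 0.23, 95% interval −1.16 to −0.11, unadjusted p 0.022, adjusted p 0.616). Over the alternatives the log2 fold change ran from −0.91, without variant 1, to −0.44, and the adjusted p from 0.356 to 0.998.

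MSMO1 (ENSG00000052802, chromosome 4, 165327623 to 165343160), the C4-methylsterol oxidase whose stretch above holds 2 CCAAT, stood at 66.4 and 51.2 CPM in the control libraries and at 54.7, 37.2 and 43.3 CPM in the variant libraries. Variant 1 overlapped with control 2, and the other variant libraries were lower. Its log2 fold change was −0.38 (SE 0.21, adjusted p 0.682 in edgeR's test), and it was −0.18 without control 1. SC5D and MSMO1 are among the AT-rich members, with GC contents of 38.6% and 38.1%.

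SQLE (ENSG00000104549, chromosome 8, 124998497 to 125022283), the squalene epoxidase and a flux-controlling step, stood at 121 and 110 CPM in the control libraries and at 153, 93.6 and 111 CPM in the variant libraries. Variant 1 was the highest library and variant 2 the lowest. The log2 fold change was 0.05 (SE 0.21, 95% interval −0.42 to 0.51) and became −0.17 without variant 1. DHCR7 (ENSG00000172893, chromosome 11, 71428193 to 71452868), the reductase of 7-dehydrocholesterol that acts on the product of SC5D, stood at 138 and 133 CPM against 153, 133 and 124 CPM. Its log2 fold change was 0.01 (SE 0.15, 95% interval −0.33 to 0.35), so the 2 successive enzymes had different estimates, and the difference between them was not tested.

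The remaining enzymes of this stretch gave no call. Log2 fold changes were 0.08 for FDFT1, the squalene synthase, 0.03 for LSS, the lanosterol synthase, 0.13 for TM7SF2, a sterol C14 reductase, −0.08 for HSD17B7, and 0.69 for CYP51A1 (SE 0.36) on its low and uncertain counts. NSDHL, a C4 demethylation enzyme, had 0.04, and EBP, the sterol isomerase, had −0.14. NSDHL and EBP were the sterol enzymes for which variant 1 was the lowest of the 5 libraries. NSDHL stood at 99.0 CPM there against 105 to 144 CPM elsewhere, and EBP at 52.8 CPM against 54.0 to 80.3 CPM.

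Of the genes of sterol transport, STARD4, which carries cholesterol through the cytosol, stood at 78.6 and 52.9 CPM in the control libraries and at 56.8, 54.7 and 42.3 CPM in the variant libraries. Control 1 stood apart, and the log2 fold change of −0.36 (SE 0.21) was −0.05 without it. TMEM97, the sigma-2 receptor, had a log2 fold change of 0.01 (SE 0.19), with 178 CPM in variant 1 against 118 to 141 CPM in the other libraries.

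For the 5 regulators the median log2 fold change was −0.08, 2 higher and 3 lower in the variant, and a wider scatter than the enzymes. Their median absolute log2 fold change was 0.405. INSIG2 (ENSG00000125629, chromosome 2, 118088452 to 118110997), which retains SCAP in the endoplasmic reticulum, stood at 39.5 and 28.9 CPM in control 1 and control 2 and at 20.3, 27.8 and 24.2 CPM in variant 1, variant 2 and variant 3. Every variant library was below both controls, although variant 2 was close to control 2. In edgeR's test INSIG2 had a log2 fold change of −0.50 (SE 0.21, 95% interval −0.98 to −0.02, unadjusted p 0.0424, adjusted p 0.639). INSIG2 has a GC content of 36.9%, and once GC content and transcript length were corrected for its log2 fold change was −0.24 (unadjusted p 0.221 in edgeR's test). Without control 1 it was −0.26.

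INSIG1 (ENSG00000186480, chromosome 7, 155297776 to 155310235), the paralog that is itself an SREBP target, stood at 381 and 208 CPM in the control libraries and at 209, 252 and 207 CPM in the variant libraries. Control 1 was the single high library, and control 2 lay within the range of the variant libraries. INSIG1 had a log2 fold change of −0.41 (SE 0.23, adjusted p 0.699 in edgeR's test), which was 0.09 without control 1.

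SCAP (ENSG00000114650, chromosome 3, 47413694 to 47477126) stood at 130 and 134 CPM in the control libraries and at 234, 155 and 139 CPM in the variant libraries. The groups did not overlap, but most of the difference came from variant 1. The log2 fold change was 0.42 (SE 0.22, 95% interval −0.07 to 0.91, adjusted p 0.676 in edgeR's test), and without variant 1 it was 0.16.

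The genes of the transcription factors themselves went in different directions in variant 1. SREBF2 (ENSG00000198911, chromosome 22, 41833079 to 41907308) stood at 200 and 275 CPM in the control libraries and at 335, 238 and 308 CPM in the variant libraries, so that variant 1 was highest. Its log2 fold change was 0.31 (SE 0.19, adjusted p 0.717 in edgeR's test), ranging from 0.09 without control 1 to 0.55 without control 2. SREBF1 (ENSG00000072310, chromosome 17, 17810399 to 17837002) stood at 101 and 132 CPM in the control libraries and at 71.1, 132 and 128 CPM in the variant libraries, so that variant 1 was lowest. Its log2 fold change was −0.08 (SE 0.26, adjusted p 0.951 in edgeR's test), and without variant 1 it was 0.15.

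For the 9 genes of the fatty acid branch the median log2 fold change was 0.07, 7 higher and 2 lower in the variant, and none reached even an unadjusted p under 0.05. No member of the branch had groups that did not overlap. FASN (ENSG00000169710, chromosome 17, 82078333 to 82098332), the member with the highest level, stood at 1791 and 1637 CPM in control 1 and control 2 and at 2186, 1689 and 1452 CPM in variant 1, variant 2 and variant 3. Variant 1 was the highest library and variant 3 the lowest, with both controls between them. For FASN the log2 fold change was 0.05 (SE 0.17, 95% interval −0.34 to 0.44, adjusted p 0.954 in edgeR's test). Without variant 1 it was −0.13.

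ACACA (ENSG00000278540, chromosome 17, 37084988 to 37406818), the acetyl-CoA carboxylase that makes malonyl-CoA, stood at 227 and 241 CPM in the control libraries and at 304, 241 and 253 CPM in the variant libraries. Variant 1 was again the highest, and the log2 fold change was 0.18 (SE 0.15, adjusted p 0.768 in edgeR's test). ACLY stood at 834 and 760 CPM against 975, 755 and 779 CPM (log2 fold change 0.07, SE 0.15). ACSS2, which makes acetyl-CoA from acetate, stood at 31.0 and 29.8 CPM against 43.1, 35.8 and 27.8 CPM (log2 fold change 0.23, SE 0.21).

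SCD (ENSG00000099194, chromosome 10, 100347124 to 100364834) stood at 754 and 634 CPM in the control libraries and at 702, 684 and 547 CPM in the variant libraries, with control 1 highest and variant 3 lowest (log2 fold change −0.11, SE 0.15, adjusted p 0.881 in edgeR's test). FADS1 (ENSG00000149485, chromosome 11, 61799625 to 61829318), the delta-5 desaturase, stood at 77.5 and 108 CPM against 118, 96.0 and 104 CPM (log2 fold change 0.19, SE 0.19). FADS2 (ENSG00000134824, chromosome 11, 61792980 to 61867354), the delta-6 desaturase, stood at 199 and 249 CPM against 278, 209 and 249 CPM (log2 fold change 0.13, SE 0.17). Its annotated span contains that of FADS1 on the opposite strand. Both genes had the same library order at both ends, with control 1 lowest and variant 1 highest. Exons of FADS2 cover 4.79% of the exon bases of FADS1, and whether counting used the strand is not given. The elongases ELOVL5 and ELOVL6 had log2 fold changes of 0.07 and −0.11.

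The branches were then set side by side. The median log2 fold change was 0.04 for the 20 sterol genes and 0.07 for the 9 fatty acid genes, a difference of −0.03. The sign of that difference was not stable. It was 0.04 with GC content and transcript length corrected for, 0.009 without control 2 and −0.10 without variant 1.

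Set against the average over all 5 libraries, the median log2 CPM of the sterol genes was −0.007 and −0.04 in control 1 and control 2, and 0.18, −0.06 and −0.12 in variant 1, variant 2 and variant 3. For the fatty acid genes it was −0.08, −0.06, 0.24, −0.05 and 0.007 in the same order. Variant 1 was thus the highest library in both branches. The other variant libraries were below both controls in the sterol branch and above both in the fatty acid branch, variant 2 by small margins in both. The sterol median minus the fatty acid median was 0.07 and 0.02 in the control libraries and −0.06, −0.008 and −0.13 in the variant libraries. These values do not overlap between the groups, but in the GC and length correction they were −0.002 and −0.10 against 0.08, 0.05 and −0.09, which do.

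Levels were also summed over each branch, which gives the most weight to abundant genes such as FASN. The sterol genes together stood at 2329 and 2182 CPM in control 1 and control 2 and at 2647, 2155 and 2090 CPM in variant 1, variant 2 and variant 3. The fatty acid genes stood at 4196 and 3887 CPM against 4870, 3962 and 3673 CPM, with FASN holding between 39.5% and 44.9% of that sum. The ratio of the sterol sum to the fatty acid sum stayed between 0.543 in variant 1 and 0.569 in variant 3. Variant 3 thus had the highest ratio of sums, while its sterol median minus fatty acid median was the lowest of the 5 libraries. The mean ratio of sums was 0.558 ± 0.00451 (SD, n = 2) in the control and 0.552 ± 0.0146 (SD, n = 3) in the variant, a difference below the SD of the variant.

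**Figure D3:**
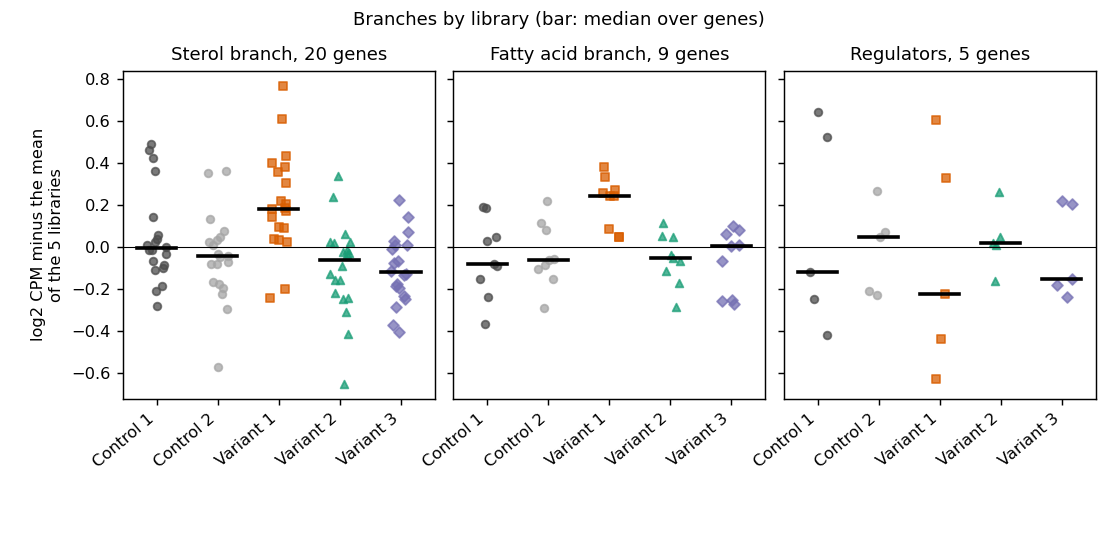
Log2 CPM of each gene relative to its mean over the 5 libraries, for the sterol branch, the fatty acid branch and the regulators. Points are genes and bars are medians, which reach 0.18 and 0.24 in variant 1 for the 2 branches and −0.22 for the regulators.

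Variant 1 was the highest of the 5 libraries at 20 of 34 members (58.8%), beside 21.8% of all tested genes. It lay above the 5-library mean at 29 members, beside 49.6% of all tested genes. All 9 fatty acid genes and 18 of the 20 sterol genes were above that mean in variant 1. Compared with the average of the remaining 4 libraries, 17 members (50%) were higher by more than 0.25 on the log2 scale and 4 were lower by more than that, where the shares of all tested genes were 22.8% and 23.8%. The 4 lower members were EBP and the regulators SREBF1, INSIG1 and INSIG2. Among members with a promoter in the table, CCAAT was present for 13 of the 16 that were highest in variant 1 and for 10 of the other 14. This library was singled out after its values were seen, and the labels give nothing that sets it apart. With the GC and length correction variant 1 was the highest library at 21 members. Whether the culture or the library preparation differed was not tested.

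Without variant 1 the median log2 fold change was −0.07 for the sterol branch and 0.03 for the fatty acid branch. With edgeR the members at an unadjusted p under 0.05 were then MSMO1 and SC5D, both lower, 2 of 34 beside 7.65% of all tested genes, and the count at an adjusted p under 0.05 was 0.

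**Figure D4:**
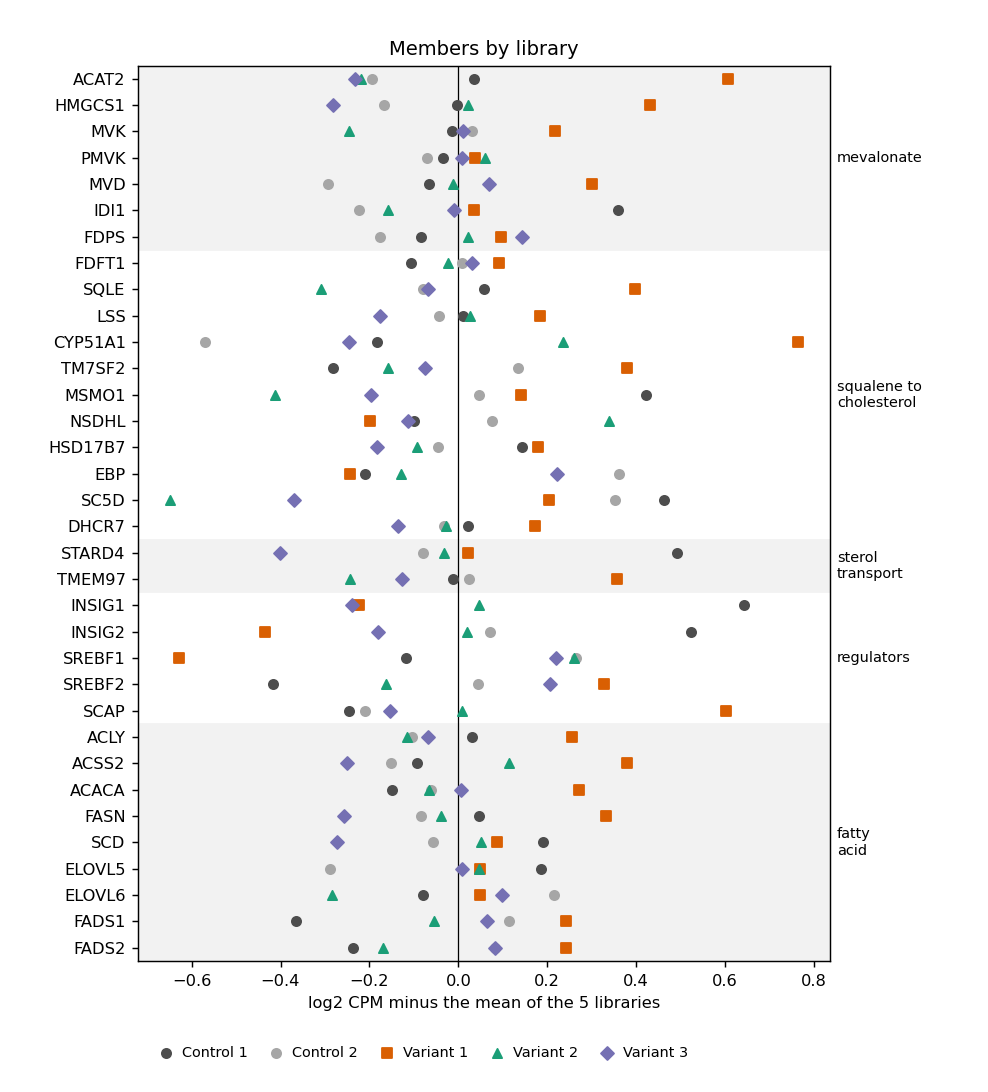
Log2 CPM of each member in each library relative to the mean of the 5 libraries, by role. The squares of variant 1 lie right of 0 at 29 of 34 members, and far left of it at SREBF1 and INSIG2.

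The group differences of the members followed GC content, as did those of the other genes. Over the 34 members, GC content and the log2 fold change had a Spearman correlation of 0.480, and over 10854 genes it was 0.407. Both are descriptions across genes that share the same 5 libraries. The 9 members with a GC content under 42%, a limit chosen after the values were seen, had a median log2 fold change of −0.14, and the other 25 had 0.07. After the correction the medians were −0.07 and 0.03, and the correlation over the members was 0.139. The correction is fitted to these same counts to remove the relation to GC content, so that fall was largely set in advance. SC5D was −0.44 after the correction (unadjusted p 0.076 in edgeR's test), MSMO1 −0.15 and STARD4 −0.07. CYP51A1, HMGCS1 and ELOVL5, also under 42%, were above 0 before the correction (0.69, 0.17 and 0.07) and after it (0.78, 0.28 and 0.17). The rest of the 9 were below 0 both times. INSIG1, with a GC content of 46.0%, stayed at −0.40.

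**Figure D5:**
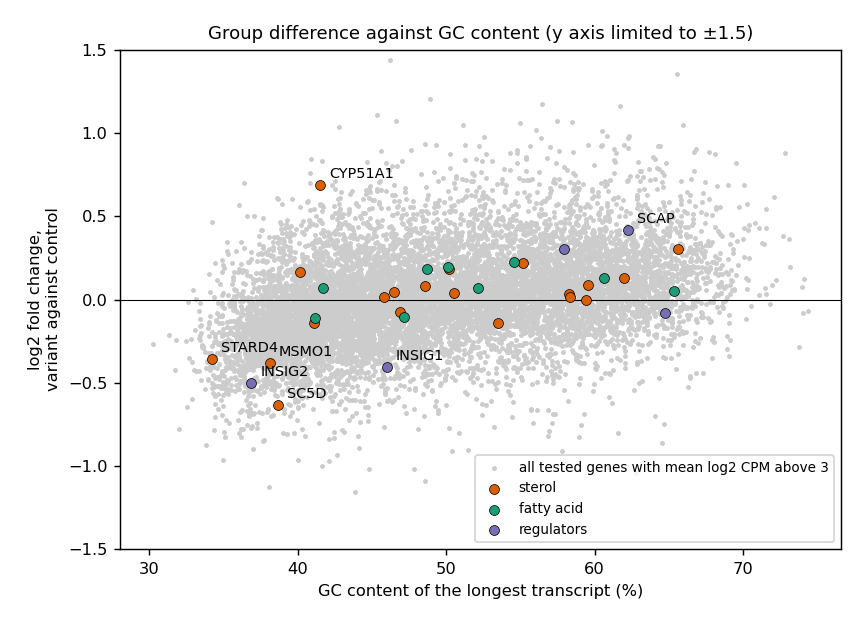
Log2 fold change of the variant against the control plotted against the GC content of the longest transcript, with members in colour by branch and tested genes with a mean log2 CPM above 3 in grey (y axis limited). SC5D, MSMO1, STARD4 and INSIG2 lie at the AT-rich, lower left end of the cloud. CYP51A1, HMGCS1 and ELOVL5, also under 42%, lie above 0.

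Other genes around the pathway were counted by list. Of 20 genes that process SREBP or degrade its partners, edgeR gave 0 an unadjusted p under 0.05, and the median log2 fold change was −0.04. Sterol storage and export gave 0 of 15 tested genes with a median of 0.11, and genes that use isoprenoids gave 0 of 14 with a median of −0.15. Among 28 genes of fatty acid elongation, activation and glycerolipid synthesis there were 3, with a median of −0.06 over the list. The share of all tested genes at that p was 7.62%. Over all tested genes, the adjusted p of each was above 0.05.

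The groups did not overlap at 7 of these 28 genes (25%), beside 24.8% of all tested genes, and the 3 were among them. ACSL3, which activates long-chain fatty acids, stood at 176 and 191 CPM in the control libraries and at 150, 150 and 120 CPM in the variant libraries (log2 fold change −0.39, SE 0.16, adjusted p 0.627 in edgeR's test). ELOVL7, an elongase, stood at 37.2 and 31.8 CPM against 28.7, 24.9 and 20.9 CPM (log2 fold change −0.47, SE 0.20). DGAT2, which completes triglyceride synthesis, rested on few counts, 17 and 34 in the control libraries and 70, 55 and 36 in the variant libraries (log2 fold change 1.07, SE 0.43). ACSL3 and ELOVL7 have GC contents of 38.1% and 36.4%, in the range of the AT-rich members.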

How the data were processed

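The authors deposited 1 table of read counts by gene, unnormalized whole numbers as its values show. Per the submitters' processing notes, HISAT2, SAMtools, HTSeq and the build hg38 were used. Versions, annotation, strand setting and gene filter are not given in the sources used here. No value in the table was under 3. Per the labels' protocols, a strand-specific mRNA library was read as single-end reads of 50 bases. Members and lists were chosen with earlier results of these data known. The rule for full values took members at an unadjusted p under 0.05 and 12 further members. MSMO1, SCAP and the other members with values by library were added after their values were seen.

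Genes were filtered with filterByExpr, scaled by TMM and tested by quasi-likelihood in edgeR 4.0.16 (R 4.3.3, robust, 5 libraries, group only), with two-sided p-values and Benjamini-Hochberg adjustment over 16310 genes. SE and intervals come from that fit. Deviations use log2 CPM with a prior count of 2. Branch medians carry no test, since 2 libraries against 3 allow no permutation p under 0.1. Symbols came from the gene name table (16627 identifiers) and GENCODE release 29 (46), which also gave positions, exon lengths and GC content on GRCh38. The GC and length correction used splines with 5 degrees of freedom per library over genes with known values. Alternatives were RLE scaling, no filter, DESeq2 1.42.0, the replicate block, this correction, both together, and leaving out each library.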

Additional observations from a re-analysis of the deposited data

How the results depend on the processing

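No member had an adjusted p under 0.05 in any of the 11 alternatives, and the lowest under edgeR was 0.356. Of 374 values of members under the alternatives, 331 kept their direction and side of the threshold and 43 changed sign. Since no member was called in any fit, the side of the threshold adds nothing to that count. RLE scaling, no filter and DESeq2 refit the same libraries with nearly the same estimates and turned no sign, so they are a weak check. In 11 members the sign held throughout: PMVK, MVD, FDPS, FDFT1, CYP51A1, MSMO1, SC5D, INSIG2, SREBF2, SCAP and ACSS2. RLE scaling and no filter changed no call.

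DESeq2's Wald test called 32 of all genes where edgeR called 0 (1243 at an unadjusted p under 0.05), and none was a member. The cause was not tested. Both groups have replicate numbers 1 and 2, but nothing says that the numbers pair the samples. Only the variant has a replicate 3, so under the block variant 3 adds nothing to the group difference. The block is thus close to leaving out variant 3. With the replicate block, edgeR gave 0 calls over all genes and 3 members at an unadjusted p under 0.05 (CYP51A1, SC5D and SCAP) beside 9.55% of all genes, the regulator median moved to −0.26 and SCD to 0.0027. The GC and length correction moved the count of such members to 1 (CYP51A1) beside 6.49% of all genes, the branch difference to 0.0437 and the regulator median to −0.24. The block and the correction together gave 2 calls over all genes, a branch difference of 0.11 and a regulator median of −0.27.

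Signs that turned with the correction were those of LSS (−0.14), HSD17B7 (0.0264), DHCR7 (−0.0889), ACLY (−0.0664), FASN (−0.24) and FADS2 (−0.0059). With the block as well, they were LSS (−0.0507), HSD17B7 (0.11), STARD4 (0.0277), ACLY (−0.0356), ACACA (−0.0314), FASN (−0.15) and FADS2 (−0.0021).

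Leaving out each library in turn, where a lone control is assumed to vary like the other libraries, gave 0 to 4 calls over all genes, 549 to 1618 genes (without control 1 and without variant 3) and 0 to 4 members (without control 1 and without control 2) at an unadjusted p under 0.05. SC5D was not among those members without control 1, control 2, variant 2 or variant 3, nor INSIG2 without control 1, variant 1 or variant 3. The sterol median ran from −0.0667 to 0.0931, the fatty acid median from 0.0294 to 0.14, the branch difference from −0.0961 to 0.0091 and the regulator median from −0.23 to 0.15. Members whose sign turned ran from −0.15 to 0.33 (ACAT2), −0.0405 to 0.32 (HMGCS1), −0.12 to 0.11 (MVK), −0.40 to 0.18 (IDI1), −0.17 to 0.19 (SQLE), −0.0556 to 0.12 (LSS), −0.0658 to 0.35 (TM7SF2), −0.15 to 0.14 (NSDHL), −0.19 to 0.0209 (HSD17B7), −0.40 to 0.17 (EBP), −0.0761 to 0.0805 (DHCR7), −0.19 to 0.13 (TMEM97), −0.78 to 0.0942 (INSIG1), −0.26 to 0.15 (SREBF1), −0.0564 to 0.14 (ACLY), −0.13 to 0.18 (FASN), −0.23 to 0.0218 (SCD), −0.15 to 0.32 (ELOVL5), −0.25 to 0.0429 (ELOVL6), −0.0250 to 0.45 (FADS1) and −0.0215 to 0.30 (FADS2). With 2 and 3 libraries, a member's 95% interval reached 0.43 on the log2 scale to each side in the median.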
